A study of Mus musculus with 8 samples.

Results

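The response of MED1 knockout macrophages to lipopolysaccharide (LPS) was measured here as the difference between LPS-treated and untreated libraries of the same genotype. The labels assigned 4 of the 8 libraries of the series to this comparison, 2 untreated and 2 with LPS, and 11272 of the 23735 loci in the table were expressed highly enough to be tested. All cells were peritoneal macrophages, the phagocytes of the abdominal cavity, from C57BL/6J mice aged 8 weeks, and LPS was given at 50 ng/mL for 6 hours. Mice with floxed MED1 alleles (MED1 fl/fl, labelled WT) served as controls, and mice lacking MED1 in macrophages (MED1ΔMac) carried the label MED1-/-. The sources used here name neither the Cre line that drove the deletion nor the deleted exons. Total RNA was sequenced, and expression was given as RPKM, reads mapped to a locus scaled by its transcript length and by the depth of the library. The libraries of each group carried the letters A and B, which the labels do not explain. Nothing states that A and B came from separate animals, so the p-values measure the spread between these libraries, which may be technical.

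MED1 is a subunit of Mediator, the large complex that links transcription factors bound at enhancers and promoters to RNA polymerase II, and it is known as a contact point for nuclear receptors. LPS, a component of the outer membrane of Gram-negative bacteria, is sensed by CD14, MD-2 and TLR4. TLR4 signals through MyD88 to NF-kB and the MAP kinases, which act on cytokine and chemokine genes within hours, and through TRIF to interferon regulatory factors and a later wave of interferon-response genes. Activated macrophages also take up more amino acids, make prostaglandins, nitric oxide and itaconate, and turn down genes of their resting state.

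The Med1 locus itself (chr11:98013468-98054607, mm9) did not separate the labels. It stood at 17.6 and 23.4 RPKM in untreated libraries A and B labelled MED1-/- and at 24.4 and 20.3 RPKM in LPS libraries A and B, against 21.7, 24.8, 24.7 and 21.6 RPKM in the 4 control libraries. The ranges of the genotypes overlapped, and the log2 change with LPS in libraries labelled MED1-/- was 0.12 (SE 0.22, 95% interval -0.38 to 0.63, adjusted p = 0.718). A value over the whole locus does not show whether a few exons are missing, so it checks the genotype label in neither direction, and the groups are named by their labels throughout.

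The labelled cell type was borne out by its markers. Among the 6 macrophage markers, the F4/80 gene Emr1 stood at 277 and 709 RPKM untreated and at 454 RPKM in both LPS libraries, and the integrin gene Itgam at 618 in both untreated libraries and at 498 and 400.5 with LPS. The 6 markers together summed to 11296 and 17859 RPKM untreated and to 7152 and 6149 RPKM with LPS, most of it lysozyme (Lyz2). Other cells were present too. The 5 B cell markers summed to 543 and 1614 RPKM in untreated A and B and to 1348 and 939.8 RPKM in LPS A and B, with overlap between treatments. Mast cell markers (4 genes) followed the letter and not the treatment, at 0.249 and 3.06 RPKM in the A libraries against 162 and 66.9 RPKM in the B libraries. T and NK cell markers (5 genes) summed to 2.52, 28.8, 3.46 and 13.7 RPKM in the same order, with Ncr1 at 0 in both A libraries. Eosinophil markers summed to 1.38 RPKM at most, and the eosinophil peroxidase gene Epx was at 0 in 3 of the 4 libraries. Neutrophil markers (4 in the table) reached 43.3, 54.7, 69.4 and 121 RPKM, nearly all of it S100a8 in 3 of them, while Mpo was at 0 in 3 libraries. Dendritic cell markers reached 21.6 RPKM and mesothelial and stromal markers 2.37 RPKM at most. No marker of another cell type passed the test (S100a8 did with the replicate block, adjusted p = 0.0328), and the part of these cells in the results below was not tested. In bulk RNA, fewer cells of a type and less RNA per cell cannot be told apart.

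LPS moved 746 loci in the libraries labelled MED1-/- past an adjusted p of 0.05 (limma on log2(RPKM + 1), letters not paired), which is 6.62% of the loci tested. Of these, 373 rose (3.31%) and 373 fell (3.31%). These shares over all loci are the ones to set beside the counts of list members called below. The LPS and untreated libraries did not overlap at any of the 746 loci. By the same measure, 15.1% of all loci had both LPS libraries above both untreated ones, and 48.0% had both below. The median change of all loci was -0.28 on the log2 scale, and 8120 of the 11272 had a lower mean with LPS (5778 with median-ratio scaling). Scaling the libraries by the median of ratios brought this median to -0.02 and gave 456 rises and 299 falls, and quantile normalization brought it to -0.06 and gave 472 and 422. Loci that rose had a median log2 change of 1.92 (quartiles 1.37 and 2.77), with a median level of 10.2 RPKM untreated and 45.8 RPKM with LPS. Loci that fell had a median log2 change of -1.54 (quartiles -2.15 and -1.25), from a median of 17.9 RPKM to 4.01 RPKM. The loci that rose took 1.90% and 1.79% of all RPKM in the untreated libraries and 12.1% and 19.9% in LPS A and B. In the pair of libraries lettered B the change was larger than in the pair lettered A at 243 of the 373 rises and at 311 of the 373 falls. The same share over all loci was not taken. Median-ratio size factors were 1.095 untreated and 0.979 with LPS in the A pair, and 1.215 and 0.887 in the B pair. The part of this scale in the larger B changes was not tested.

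**Figure D1:**
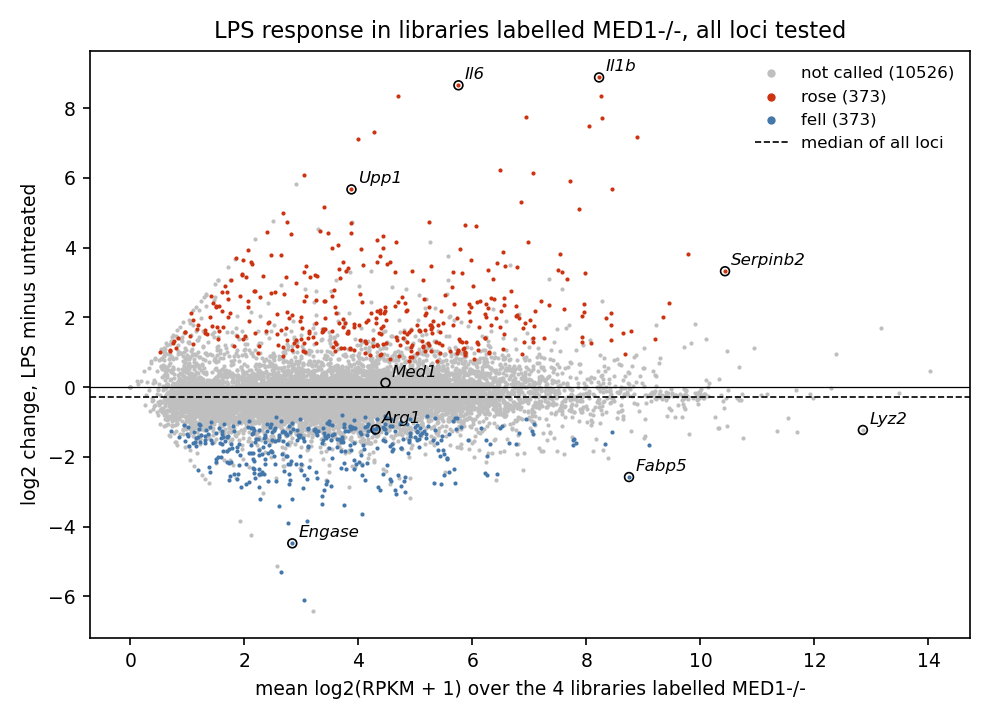
Log2 change with LPS (vertical) against the mean log2(RPKM + 1) of the 4 libraries labelled MED1-/- (horizontal), 1 point per locus tested. The 373 loci that rose reach 8.88 (Il1b) and the 373 that fell include Engase at -4.48, Med1 lies near 0, and the dashed line marks the median of all loci at -0.28.

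The calls rested on all 4 libraries labelled MED1-/- and, through the shared spread, on the controls. Leaving out control LPS A or control LPS B gave more calls. Of the 746, 270 were called again without untreated A, 33 without untreated B, 65 without LPS A and 14 without LPS B, where the lone library of a group was taken to vary like the others. Leaving out control untreated A or B, which enter only through the shared spread, kept 376 and 378. Only 13 loci (0.115% of those tested) were called in all 8 such fits. The genes among them were Upp1, Mmp3, Slc7a2, Cish, Il1f9, Wdr92, Bcl2a1d, Cdc42ep2, Sdc4, Marcksl1 and Olfr1033, all of which rose, and the other 2 were small RNA loci that fell. With the letter added as a replicate block, the paired fit called 592 rises (5.25%) and 1019 falls (9.04%), among them all 746.

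Secreted cytokines gave the largest rises. Of 35 cytokine and growth factor genes, 34 could be tested, 19 rose and none fell, with a median log2 change of 2.99. Il1b, the precursor of interleukin-1 beta (chr2:129190306-129196875, mm9), stood at 9.77 and 16.6 RPKM in untreated A and B and at 4257 and 9859 RPKM in LPS A and B. Its mean was thus 536-fold higher with LPS (log2 change 8.88, SE 0.81, adjusted p = 0.00539). Il6, which drives fever and the hepatic acute phase, went from 1.01 and 2.60 RPKM to 484 and 2423 RPKM (log2 change 8.65, SE 1.37, adjusted p = 0.02). Both LPS libraries lay far above both untreated ones, and library B held the higher LPS value for each gene. Tnf, the early alarm cytokine of macrophages, rose from 18.1 and 12.3 RPKM to 680.3 and 1881 RPKM (log2 change 6.15, SE 0.70, adjusted p = 0.00933). The colony-stimulating factors Csf3 and Csf2, which act on granulocytes and their precursors, were near their floor without LPS. Csf3 was at 0.440 and 0.417 RPKM untreated and at 187 and 1142 RPKM with LPS, and Csf2 at 0.154 and 0.582 against 84.7 and 400.4 RPKM. Il1a, the alarmin partner of Il1b, rose from 22.6 and 15.6 to 2358 and 5368 RPKM. The rise of Il1f9, an interleukin-36 gene, was smaller but tighter, from 5.31 and 4.61 RPKM to 85.4 and 129 RPKM (log2 change 4.16, SE 0.32, adjusted p = 0.00313), and passed in every fit that left out 1 library. The other risers included the co-stimulatory ligands Tnfsf9 and Tnfsf4, both subunits of interleukin-12 (Il12b and Il12a), Il27, Osm, Il18, the activin subunit Inhba and the EGF receptor ligands Areg, Ereg and Hbegf. Il10, an anti-inflammatory cytokine, stood at 3.70 and 1.53 RPKM untreated and at 4.90 and 5.51 RPKM with LPS and was not called (log2 change 0.84, adjusted p = 0.278). Of these 19 calls, 8 held without untreated A, 2 without untreated B, 6 without LPS A, 2 without LPS B and 17 without control untreated A or control untreated B. With the letter as a replicate block 2 cytokine genes were called lower, against none without it.

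**Figure D2:**
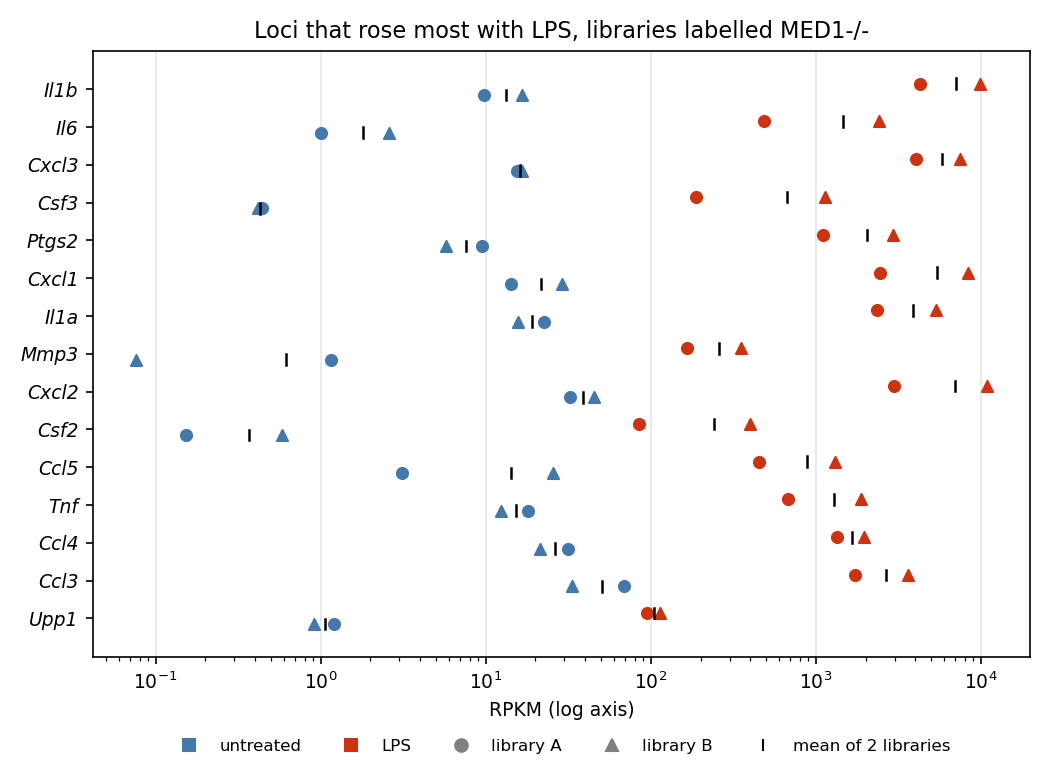
RPKM on a log axis for the 15 named loci with the largest rise, circles for library A, triangles for library B and ticks for the mean of the 2 libraries. No untreated value reaches an LPS value of the same gene, which the naming rule required. The B triangle with LPS lies to the right of the A circle for all 15.

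Chemokines split more. Of 26 genes, 23 were tested, 8 rose, 1 fell and the median log2 change was 1.08 (2.82 without untreated B). The 3 neutrophil attractants Cxcl1, Cxcl2 and Cxcl3 lie in 1 cluster on chromosome 5 (Cxcl1 at chr5:91320267-91322141, mm9) and were among the most abundant induced transcripts. Cxcl3 stood at 15.5 and 16.6 RPKM untreated and at 4033 and 7511 RPKM with LPS (log2 change 8.34, SE 0.90, adjusted p = 0.00895). Cxcl1 rose from 14.2 and 28.8 to 2449 and 8336 RPKM, and Cxcl2 from 32.3 and 45.3 to 2970.2 and 10898 RPKM, the highest LPS value of the 3 genes. The CC chemokines followed. Ccl3 rose from 68.5 and 33.3 to 1725 and 3609 RPKM, Ccl4 from 31.5 and 21.4 to 1345 and 1944 RPKM, and Ccl5 from 3.10 and 25.4 to 454 and 1304 RPKM. The monocyte attractants Ccl2 and Ccl7 rose as well, with log2 changes of 4.61 and 4.32. Ccl6, a chemokine that resting macrophages already make, fell from 56.9 and 90.7 to 26.3 and 19.8 RPKM (log2 change -1.61, SE 0.27, adjusted p = 0.0216). Cxcl10, a ligand of CXCR3 on T cells, stood at 0 and 7.27 RPKM untreated and at 52.9 and 106 RPKM with LPS. Its spread left it uncalled (log2 change 4.72, SE 1.56, adjusted p = 0.105), while the paired fit with the replicate block called it (adjusted p = 0.0213). Of these 9 calls, 8 held without untreated A, 1 without untreated B, 5 without LPS A and none without LPS B.

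RefSeq promoter windows (GRCm38.p6, 250 bases before to 50 after the start) were searched on both strands for the NF-kB consensus motif, which 4.5% of all 32851 windows hold, and for the AP-1 motif TGANTCA (7.8%). The other motifs were the cyclic AMP response element TGACGTCA (1.8%), the interferon-stimulated response element (3.4%), the E-box CACGTG (7.2%) and the antioxidant response element TGACNNNGC (12.4%). Of the 15 named loci with the largest rise, 12 had a window. In these, 4 held the NF-kB motif (Il6, Cxcl1, Cxcl2 and Cxcl3) and 4 held the AP-1 motif (Il6, Il1a, Upp1 and Mmp3). Among the 15 largest falls 13 genes had a window, of which none held the NF-kB motif and 2 the AP-1 motif. A gene was counted where any of its windows held the motif, so shares of genes and shares of windows are unlike measures. For all 373 rises or all 373 falls the share was not taken, because only 75.6% and 76.1% of them had a window. The 120 bases before the start are printed for 6 strongly induced genes, with the motif in capitals, and the genes were picked after their values were seen. The first 4 show the NF-kB motif and the last 2 the AP-1 motif, and Cxcl1, Cxcl2 and Cxcl3 share the same 11 letters, which are 2 overlapping matches. A match describes the letters and was not tested for binding.
Cxcl1 (plus strand, chr5:90891125-90891244): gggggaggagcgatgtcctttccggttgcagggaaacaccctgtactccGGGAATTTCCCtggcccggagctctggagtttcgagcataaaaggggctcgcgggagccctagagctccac
Cxcl2 (plus strand, chr5:90903779-90903898): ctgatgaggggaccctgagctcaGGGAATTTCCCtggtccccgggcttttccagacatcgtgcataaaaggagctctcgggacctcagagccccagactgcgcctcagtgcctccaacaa
Cxcl3 (plus strand, chr5:90785981-90786100): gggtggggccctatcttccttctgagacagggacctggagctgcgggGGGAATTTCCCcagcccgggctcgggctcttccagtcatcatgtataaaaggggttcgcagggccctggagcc
Il6 (plus strand, chr5:30012994-30013113): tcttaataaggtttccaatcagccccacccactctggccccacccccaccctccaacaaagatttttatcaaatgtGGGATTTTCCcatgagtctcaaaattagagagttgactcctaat
Upp1 (plus strand, chr11:9117888-9118007): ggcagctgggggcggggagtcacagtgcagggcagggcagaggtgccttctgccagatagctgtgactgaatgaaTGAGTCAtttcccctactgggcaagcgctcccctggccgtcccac
Mmp3 (plus strand, chr9:7445702-7445821): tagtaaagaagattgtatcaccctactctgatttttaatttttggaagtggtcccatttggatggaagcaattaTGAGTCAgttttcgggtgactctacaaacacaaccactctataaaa

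Receptors for cytokines and chemokines moved in both directions and their median was near 0 (-0.04, against 0.22 with median-ratio scaling and -0.29 without untreated A). Of 43 genes, 39 were tested, 4 rose and 1 fell. The atypical chemerin receptor gene Ccrl2 rose from 11.9 and 19.0 to 104 and 238 RPKM (log2 change 3.30, adjusted p = 0.0327) and Tnfrsf1b, TNF receptor 2, from 139 and 98.0 to 445 and 623 RPKM (log2 change 2.16, adjusted p = 0.0154). Met, the receptor of hepatocyte growth factor, rose from 20.9 and 4.63 to 60.9 and 69.6 RPKM, and Il4ra also rose. The CXCL12 receptor gene Cxcr4 fell from 190.1 and 119 to 30.9 and 46.0 RPKM (log2 change -1.97, adjusted p = 0.0299). Of these 5 calls, 2 held without untreated A, none without untreated B, LPS A or LPS B, and 4 without control untreated A or B, and the replicate block gave 4 rises and 3 falls. With median-ratio scaling Met and Cxcr4 had adjusted p of 0.0528 and 0.0504.

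The list of G protein-coupled receptors, the RGS proteins that switch off their signals and 2 ATP-gated P2X channels gave 4 rises and 7 falls among 37 tested of 41. Gpr84, a receptor for medium-chain fatty acids, rose from 1.37 and 3.14 to 63.0 and 70.3 RPKM (log2 change 4.43, SE 0.50, adjusted p = 0.00933), and the formyl peptide receptor gene Fpr1 from 17.3 and 43.6 to 218 and 460.0 RPKM. The adenosine receptor genes Adora2b and Adora2a rose too, with log2 changes of 2.11 and 1.92. On the falling side, Rgs2 went from 25.5 and 70.6 to 3.19 and 3.13 RPKM (log2 change -3.39, SE 0.51, adjusted p = 0.0169) and Rgs18 from 10.1 and 26.7 to 1.82 and 1.70 RPKM. The nucleotide receptor genes P2ry6 and P2ry14 and the ATP-gated channel gene P2rx7 fell, P2ry6 from 11.5 and 16.5 to 1.66 and 1.96 RPKM (log2 change -2.40, adjusted p = 0.02). The lysophospholipid receptor gene Lpar6 and Rgs10 also fell. Of these 11 calls, 8 held without untreated A, 2 without LPS A, none without untreated B or LPS B, and 9 without control untreated A or B, and the replicate block gave 7 rises and 9 falls.

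Among sensors of microbes, 6 of 29 tested (31 in the table) rose and 2 fell. Nlrp3, the sensor of the best-known inflammasome, rose from 9.56 and 12 to 242 and 355 RPKM (log2 change 4.65, SE 0.44, adjusted p = 0.00590). Clec4e, the Mincle receptor for mycobacterial glycolipid, was already at 202 and 268 RPKM and reached 3018 and 3573 RPKM. Nod2, which senses bacterial cell wall fragments, rose from 1.87 and 3.34 to 18.1 and 18.7 RPKM, and the LPS co-receptor gene Cd14 from 339 and 266 to 1194 and 2164 RPKM. The cytosolic RNA sensor genes Ifih1 and Dhx58 rose by log2 changes of 2.17 and 1.37. Tlr8, an endosomal RNA sensor, fell from 66.4 and 79.0 to 7.81 and 7.64 RPKM, a mean 9.41-fold lower (log2 change -3.07, SE 0.46, adjusted p = 0.0166), and Cd180, a TLR4-related receptor, fell by 1.62 on the log2 scale. Tlr4 itself was not called, at 35.8 and 53.7 RPKM untreated and 78.1 and 71.7 RPKM with LPS (adjusted p = 0.0836). Of these 8 calls, 3 held without untreated A, 2 without untreated B, 1 without LPS A, none without LPS B and 6 without control untreated A or B.

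Signalling genes downstream of the Toll-like receptors rose or were not called. Of 31 adaptors, kinases and TRAF proteins 30 were tested and 6 rose: Traf1, from 7.25 and 10.4 to 74.6 and 123 RPKM (log2 change 3.32, SE 0.37, adjusted p = 0.00933), and, with log2 changes between 0.82 and 1.30, Tank, Mapkapk2, Ikbkg, Irak2 and Myd88. The Irak3 gene, for a kinase-dead inhibitor of the pathway, stood at 15.2 and 35.1 RPKM untreated and at 87.7 and 109.7 RPKM with LPS (adjusted p = 0.0538, and 0.00932 with the replicate block). All 18 NF-kB subunit and inhibitor genes were tested, 10 rose and none fell, with a median log2 change of 1.31. The ubiquitin-editing inhibitor gene Tnfaip3 (A20) rose from 22.8 RPKM in both untreated libraries to 123 and 250 RPKM (log2 change 2.89, SE 0.52, adjusted p = 0.0267). Nfkbia, whose protein holds NF-kB in the cytoplasm, rose from 54.8 and 73.5 to 258 and 333 RPKM (log2 change 2.19, adjusted p = 0.0131). The subunit precursors Nfkb1 and Nfkb2 rose by log2 changes of 2.07 and 2.38, and Tnip1, Nfkbiz, Tnip3, Nfkbib, Nfkbie and Relb rose as well. Of these 16 calls in both lists, the 10 NF-kB calls held in 3 cases without untreated A, in none without untreated B, LPS A or LPS B, and in 7 without control untreated A or B, while the 6 adaptor calls held in 1, none, 1, none and 3 cases.

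Feedback inhibitors of cytokine and MAP kinase signalling rose in 10 of 33 tested (34 in the table), and none fell. Cish, an inhibitor of STAT5 signalling, stood at 1.24 and 1.54 RPKM untreated and at 51.6 and 48.3 RPKM with LPS (log2 change 4.41, SE 0.29, adjusted p = 0.00237). It was called in every fit that left out 1 library. Socs3, which limits interleukin-6 signalling, rose from 31.7 and 23.1 to 208 and 275 RPKM, and Socs1, which limits interferon signalling, from 1.68 and 4.76 to 33.9 and 47.3 RPKM. Zc3h12a, the regnase-1 enzyme that cuts inflammatory mRNAs, rose from 16.8 and 15.4 to 61.3 and 112 RPKM, and its relative Zc3h12c from 8.67 and 8.10 to 42.4 and 40.8 RPKM. The pseudokinase gene Trib3, the MAP kinase phosphatase genes Dusp16 and Dusp5, and Spry1 and Spred1, inhibitors of the Ras pathway, rose by log2 changes between 1.70 and 2.13. Of these 10 calls, 6 held without untreated A, 1 without untreated B, 2 without LPS A, 1 without LPS B and 9 without control untreated A or B, and the replicate block gave 16 rises and 2 falls.

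Among transcription factors, 7 of 35 tested AP-1, EGR and related genes (36 in the table) rose. Maff, a small Maf protein, rose from 5.64 and 1.59 to 52.2 and 78.5 RPKM (log2 change 3.97, SE 0.53, adjusted p = 0.0131), and the immediate early gene Ier3 from 68.3 and 67.6 to 469 and 736 RPKM (log2 change 3.09, SE 0.36, adjusted p = 0.00987). Fosl1, Fosl2, Junb, Atf4 and Ets2 also rose. Fos was not called, at 23.8 and 5.95 RPKM untreated and 2.72 and 1.67 RPKM with LPS (adjusted p = 0.171, and 0.0172 with the replicate block). Of 19 interferon regulatory and STAT factors and their kinases tested (20 in the table), only Jak2 and Irf7 rose, Irf7 from 24.7 and 28.2 to 112 and 76.5 RPKM (log2 change 1.77, adjusted p = 0.0371). Irf1 stood at 40.3 and 161 RPKM untreated and at 153 and 288 RPKM with LPS, so its groups overlapped (adjusted p = 0.295). Of these 9 calls, the 7 AP-1 calls held in 6 cases without untreated A, in 1 without untreated B, in 1 without LPS A, in none without LPS B and in 4 without control untreated A or B. The Jak2 and Irf7 calls were both lost without any 1 of the 4 libraries labelled MED1-/-, and 1 held without control untreated A or B. The replicate block gave 10 rises and 1 fall in the AP-1 list and 3 and 1 in the other.

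Lineage factors of the macrophage moved in both directions. Of 44 genes, 43 were tested, 3 rose and 6 fell, and the median was -0.18 (0.11 with median-ratio scaling, -0.29 without untreated A and 0.03 without untreated B). Cebpa, a myeloid differentiation factor, fell from 79.6 and 57.7 to 12.5 and 8.70 RPKM (log2 change -2.59, SE 0.51, adjusted p = 0.0325). Klf10 fell from 22.2 and 22.6 to 6.07 and 3.61 RPKM, and the lysosomal gene regulator Tfeb, the retinoid receptor Rxra and Gata6, the factor that specifies large peritoneal macrophages, fell too, with log2 changes of -1.25, -1.21 and -1.13. In each of these genes both LPS values lay below both untreated ones, as at all 373 loci that fell. Tfec, a macrophage relative of Tfeb, rose from 28.8 and 23.2 to 139.6 and 141 RPKM (log2 change 2.40, SE 0.33, adjusted p = 0.0141), with Cebpd and Klf7. Of these 9 calls, 2 held without untreated A, none without untreated B, LPS A or LPS B, and 2 without control untreated A or B. The replicate block gave 6 rises and 7 falls, and median-ratio scaling 4 and 3.

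**Figure D3:**
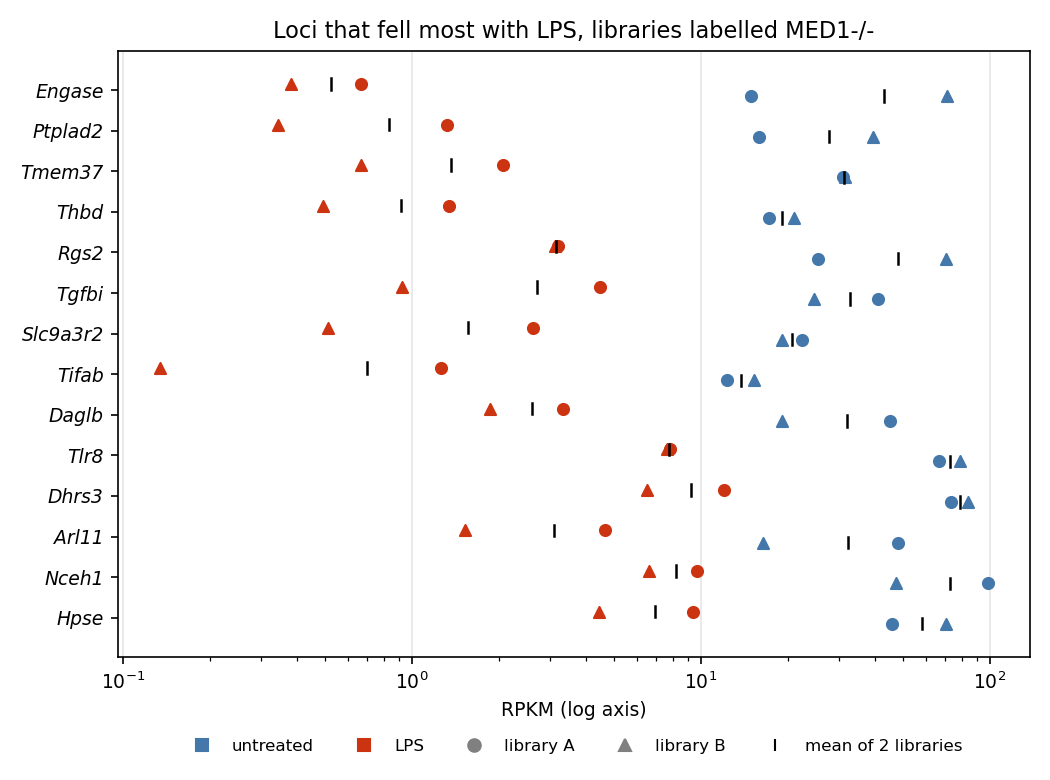
RPKM on a log axis for 14 of the 15 loci with the largest fall, drawn as in the plot of the largest rises. Each LPS value lies below each untreated value of its gene, which the naming rule required. The genes go from Engase at 0.668 and 0.38 RPKM with LPS to Dhrs3 at 12 and 6.53 RPKM.

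Interferon-response genes were all higher with LPS. All 48 in the table were tested and all 48 had a higher mean with LPS. Over all loci 3147 of 11272 had a higher mean (5489 with median-ratio scaling). Of the 48, 23 rose past the threshold (47.9%, beside 3.31% over all loci) and none fell, with a median log2 change of 1.75. Isg15, a ubiquitin-like antiviral protein, stood at 10.8 and 15.5 RPKM untreated and at 209.6 and 222 RPKM with LPS (log2 change 3.95, SE 0.46, adjusted p = 0.00987). Ifit1, which binds viral RNA, rose from 1.73 and 5.81 to 54.8 and 36.8 RPKM (log2 change 3.41, SE 0.49, adjusted p = 0.0159). Rsad2 (viperin) rose from 2.50 and 4.36 to 46.2 and 39.6 RPKM, Oasl1 from 2.13 and 2.27 to 25.2 and 31.5 RPKM, and Mx1 from 0.642 and 4.76 to 34.8 and 21.9 RPKM. In each of these 5 genes untreated B was higher than untreated A, and the groups stayed apart. Gbp5, a guanylate-binding protein, stood at 1.29 and 34.7 RPKM untreated and at 135 and 188 RPKM with LPS (log2 change 4.15, adjusted p = 0.0797, and 0.0133 with the replicate block). The transcript of interferon beta, Ifnb1, was below the limit for testing, at 0 RPKM in both untreated libraries and 0.312 and 0.191 RPKM with LPS. The promoters of Isg15 and Ifit1 are printed because both held matches to the interferon-stimulated response element within 120 bases of the start (RefSeq, GRCm38.p6, matches in capitals). Isg15 had 3 overlapping matches and Ifit1 had 2 separate ones read on the opposite strand, and none of the 12 genes with a window among the largest rises held one. For this list the share with the motif was not taken, because only 17 of the 23 risers (73.9%) had a window. Of these 23 calls, 6 held without untreated A, 1 without untreated B, none without LPS A or LPS B, and 14 without control untreated A or B.
Isg15 (minus strand, chr4:156200819-156200938): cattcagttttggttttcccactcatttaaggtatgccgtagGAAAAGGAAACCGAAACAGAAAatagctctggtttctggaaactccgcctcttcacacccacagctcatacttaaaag
Ifit1 (plus strand, chr19:34640769-34640888): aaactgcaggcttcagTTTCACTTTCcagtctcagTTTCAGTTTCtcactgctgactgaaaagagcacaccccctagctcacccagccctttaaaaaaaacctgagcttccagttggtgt

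Effector genes moved in both directions. Of 41 genes for antimicrobial proteins, lipid mediators and acute-phase proteins 40 were tested, 11 rose and 5 fell. Ptgs2, the inducible cyclooxygenase of prostaglandin synthesis, rose from 9.5 and 5.77 to 1101 and 2951 RPKM (log2 change 7.74, SE 0.74, adjusted p = 0.00590), and Ptges, the prostaglandin E synthase that acts after it, from 21.3 and 38.7 to 503 and 572 RPKM. Genes of leukotriene synthesis were among the falls. Alox5, 5-lipoxygenase, fell from 20.8 and 36.2 to 3.99 and 2.40 RPKM (log2 change -2.79, SE 0.32, adjusted p = 0.00944), its partner Alox5ap from 427 and 342 to 150.2 and 98.4 RPKM, and Lta4h and the prostaglandin D synthase Hpgds fell with log2 changes of -1.32 and -2.12. Upp1, uridine phosphorylase (chr11:9018106-9036173, mm9), stood at 1.21 and 0.918 RPKM untreated and at 95.2 and 113 RPKM with LPS. Its log2 change of 5.67 (SE 0.29, adjusted p = 0.000556) had the smallest adjusted p among the named genes and held in every fit that left out 1 library. Irg1, which makes itaconate, rose from 22.7 and 65.9 to 1182 and 1604 RPKM, Lcn2, the siderophore trap lipocalin-2, from 0.687 and 3.90 to 42.4 and 129 RPKM, and Nos2, inducible nitric oxide synthase, from 0.135 and 1.09 to 27.3 and 36.3 RPKM. Ch25h, Camp, Sod2, Ass1 and Gch1 rose too. The most abundant acute-phase transcript, Saa3, was not called because untreated A and B lay at 2383 and 10936 RPKM, against 12572 and 22081 RPKM with LPS (log2 change 1.71, SE 0.72, adjusted p = 0.168). Of these 16 calls, 7 held without untreated A, 1 without untreated B, 4 without LPS A, 1 without LPS B and 12 without control untreated A or B.

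Arg1, arginase, which competes with nitric oxide synthase for arginine (chr10:24635014-24647276, mm9), fell in the libraries labelled MED1-/-. It stood at 22.8 and 36.9 RPKM untreated and at 11.5 and 12.4 RPKM with LPS, which is a log2 change of -1.21 with an SE of 0.27 (adjusted p = 0.0433). In control libraries the same gene went from 56.1 and 48.2 RPKM to 325 and 425 RPKM (log2 change 2.82, adjusted p = 0.00683). The fall was lost without untreated B (adjusted p = 0.136), LPS A (0.15), LPS B (0.240), control untreated A (0.0788) or control untreated B (0.0785), with median-ratio scaling (0.116) or quantile normalization (0.0655), with no filter (0.0742), and in the 4 libraries labelled MED1-/- alone (0.0771), while all 17 alternatives gave a lower level with LPS.

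In the list of amino acid and metal transporters and related genes, 9 of 31 tested (32 in the table) rose with LPS, and none fell. Slc7a2, the cationic amino acid transporter that imports arginine, stood at 19.0 and 15.9 RPKM untreated and at 552 and 943 RPKM with LPS (log2 change 5.30, SE 0.44, adjusted p = 0.00387), and passed in every fit that left out 1 library. Slc7a11, the cystine importer of glutathione synthesis, rose from 63.8 and 37.1 to 516 and 942 RPKM (log2 change 3.81, SE 0.69, adjusted p = 0.0267), and its heavy chain partner Slc3a2 from 142 and 82.2 to 486 and 672 RPKM. Metallothionein 2 (Mt2) rose from 3.25 and 6.49 to 71.9 and 78.1 RPKM, and the zinc importer Slc39a14 from 7.27 and 4.05 to 29.5 and 53.9 RPKM. Slc7a5, Slc7a1, Slc15a3 and Slc31a2 completed the rises. NRF2 targets and integrated stress response genes rose in 10 of 39 tested, and none fell. The other 29 were not called in the main fit, among them the NRF2 targets Hmox1, Nqo1, Gclc, Gclm and Gsr. Asns, asparagine synthetase, rose from 20.1 and 15 to 116 and 155 RPKM (log2 change 2.88, SE 0.34, adjusted p = 0.00987), Chac1, which degrades glutathione, from 2.80 and 2.04 to 18 and 22.2 RPKM, and the thioredoxin reductase gene Txnrd1 from 217 and 124 to 677 and 755 RPKM. Srxn1, Sqstm1, Sesn2, Atf4, Trib3 and Herpud1 rose as well. All 10 risers of this list had a promoter window and 5 held the antioxidant response element letters in any window (Srxn1, Txnrd1, Asns, Sesn2 and Herpud1). The share of all windows, 12.4%, counts each window singly and is an unlike measure. By the same count, 3 of the 6 risers of the Toll-like receptor adaptor list held these letters (Mapkapk2, Ikbkg and Irak2). Of these 9 transporter calls, 6 held without untreated A, 3 without untreated B, 4 without LPS A, 1 without LPS B and 8 without control untreated A. Of the 10 stress response calls, 7 held without untreated A, 1 without untreated B, 2 without LPS A, none without LPS B, 7 without control untreated A and 8 without control untreated B. The replicate block gave 11 rises and 1 fall among transporters and 12 and 1 among stress response genes.

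Transcripts of energy metabolism were lower along 1 arm. Of 38 Krebs cycle and fatty acid oxidation genes 36 were tested, 8 fell and none rose. All 36 had a lower mean with LPS (33 of 36 with median-ratio scaling), beside 8120 of 11272 over all loci (5778 with median-ratio scaling). The median log2 change was -0.82 (-0.52 with median-ratio scaling), against -0.28 over all loci. Fabp5, a fatty acid carrier, fell from 1367 and 804 to 230.2 and 133 RPKM (log2 change -2.58, SE 0.43, adjusted p = 0.0222). This was the largest fall in RPKM among the named genes that were called. Idh1, cytosolic isocitrate dehydrogenase, fell from 175 and 237 to 42.5 and 29.1 RPKM (log2 change -2.50, SE 0.34, adjusted p = 0.0131), and Cpt1a, which admits fatty acids to mitochondria, from 36.9 and 36.1 to 8.34 and 6.49 RPKM. Angptl4, a PPAR target that inhibits lipoprotein lipase, fell from 11.6 and 12.2 to 1.04 and 0.511 RPKM. Hadh, Ech1, Etfdh and the uncoupling protein gene Ucp2 fell by log2 changes between -1.84 and -1.12. Of these 8 calls, 2 held without untreated A, none without untreated B, LPS A or LPS B, and 4 without control untreated A or B, and the replicate block called 16. Glycolysis and hypoxia-factor targets had a median of -0.13 (0.16 with median-ratio scaling, and from -0.32 without untreated B to 0.35 without untreated A), and 3 of 32 rose: the hexose transporter Slc2a6, from 36.7 and 61.2 to 246 and 238 RPKM (log2 change 2.32, adjusted p = 0.0126), the peptide hormone Adm and the oxidoreductase Ero1l. Those 3 held in 2 cases without untreated A, in 1 without untreated B, in none without LPS A or LPS B and in 2 without control untreated A or B, and the replicate block gave 5 rises and 1 fall. In cholesterol and lipid synthesis, 35 of 37 were tested, of which 2.86% rose and 5.71% fell, beside 3.31% each way over all loci. Dhcr7, the last enzyme of cholesterol synthesis, fell from 8.12 and 9.26 to 2.28 and 1.83 RPKM, Nceh1, a cholesterol ester hydrolase, fell from 98.7 and 47.3 to 9.72 and 6.61 RPKM, and Ch25h, cholesterol 25-hydroxylase, rose from 0.444 and 0.631 to 11 and 6.42 RPKM. Of these 3 calls, 1 held without untreated A, none without untreated B, LPS A or LPS B and 2 without control untreated A or B, and the replicate block gave 2 rises and 6 falls.

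Of the lysosome genes, 5 fell and none rose. All 42 in the table were tested, 41 had a lower mean with LPS (39 with median-ratio scaling), beside 8120 of 11272 over all loci, with a median log2 change of -0.96. Engase, an enzyme that trims free N-glycans and was placed in this list, had the largest fall of the named protein-coding genes, from 14.9 and 70.9 to 0.668 and 0.38 RPKM (log2 change -4.48, SE 0.66, adjusted p = 0.0161). Other hydrolase genes that fell were Fuca1, from 62.9 and 56.5 to 20.9 and 14.6 RPKM (log2 change -1.71, adjusted p = 0.0194), Sgsh and Ctsh. Lgmn, the protease legumain, stood at 679.8 and 496 RPKM untreated and at 254 and 110.4 RPKM with LPS (adjusted p = 0.145, and 0.0133 with the replicate block). Of these 5 calls, 2 held without untreated A, none without untreated B, LPS A or LPS B, and 2 without control untreated A or B, while the replicate block called 22 falls.

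Scavenger and immune complex receptors, complement proteins and uptake ligands gave 8 falls and 2 rises among 49 tested of 52, with 34 lower, a share close to that over all loci, and a median log2 change of -1.13. The activating IgG receptor genes fell together. Fcgr4 went from 35.7 and 79.9 to 7.88 and 5.39 RPKM (log2 change -2.86, SE 0.41, adjusted p = 0.0155), Fcgr1 from 6.29 and 17.3 to 1.93 and 0.455 RPKM (log2 change -2.48, SE 0.50, adjusted p = 0.0356), and Fcgr3 from 386 and 402 to 133 and 123 RPKM (log2 change -1.61, SE 0.23, adjusted p = 0.0155). Fcgr1 was also the only macrophage marker of the 6 with a call. Mertk, a receptor for dying cells, fell from 16.1 and 25.3 to 6.27 and 6.90 RPKM, and Itgb5, an integrin subunit for the same uptake, from 17.1 and 13.7 to 1.76 and 2.12 RPKM. Cd93, Siglec1 and Scarb2 fell as well. Gas6, the bridging ligand of Mertk, stood at 16.2 and 6.63 RPKM untreated and at 1.49 and 0.590 RPKM with LPS (adjusted p = 0.0674, and 0.00370 with the replicate block). Olr1, a receptor for oxidized LDL, rose from 9.04 and 13.5 to 120.4 and 83.3 RPKM, and Trem1, an amplifier of inflammation, from 0.340 and 0.172 to 4.69 and 11.1 RPKM. Of these 10 calls, 6 held without untreated A, none without untreated B, 1 without LPS A, none without LPS B and 7 without control untreated A or B, and the replicate block gave 6 rises and 18 falls.

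Genes that mark large peritoneal macrophages gave 4 falls and 1 rise among 29 tested of 31, with a median of -0.65. That median was -1.18 without untreated A, -0.13 without untreated B and -0.37 with median-ratio scaling. Itga6 fell from 54.2 and 111 to 24.0 and 19.4 RPKM, Tgfb2 from 6.49 and 19.7 to 1.61 and 1.75 RPKM, and Gata6 from 7.24 and 11.6 to 3.77 and 3.59 RPKM (log2 change -1.13, adjusted p = 0.0403). Arg1 was the fourth. Serpinb2, plasminogen activator inhibitor 2, was already among the abundant transcripts of these cells at 334 and 566 RPKM and rose to 4420.2 and 4316 RPKM (log2 change 3.32, SE 0.40, adjusted p = 0.0107). Timd4, a phosphatidylserine receptor, varied with the letter in untreated cells, at 1.13 and 71.5 RPKM against 20.2 and 31.8 RPKM with LPS, and gave no call (adjusted p = 0.681). Of these 5 calls, 5 held without untreated A, 1 without untreated B, none without LPS A or LPS B, 1 without control untreated A or B and 4 without control LPS A. Median-ratio scaling gave 2 rises and 1 fall in this list, quantile normalization 1 and 1, and the replicate block 3 and 5.

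Of 40 genes of antigen presentation and co-stimulation 39 were tested, 7 rose and none fell. Cd40, through which T cells activate macrophages, rose from 10.5 and 27.0 to 145 and 208 RPKM (log2 change 3.28, SE 0.53, adjusted p = 0.0204), and the actin regulator Marcksl1 from 51.6 and 68.7 to 523 and 677 RPKM (log2 change 3.30, SE 0.27, adjusted p = 0.00386). Vcam1, an adhesion molecule, rose from 0.1 and 0.265 to 6.47 and 4.32 RPKM, and Icam1 and the PD-L1 gene Cd274 also rose. Cd86, a co-stimulatory ligand, stood at 35.7 and 55.5 RPKM untreated and at 37.2 and 43.4 RPKM with LPS (adjusted p = 0.704). Of these 7 calls, 4 held without untreated A, 1 without untreated B, 1 without LPS A, 2 without LPS B and 6 without control untreated A or B, and the replicate block gave 10 rises and 1 fall. Of 40 cell death and survival genes 39 were tested, 9 rose and 2 fell. The BCL2 relatives Bcl2a1a, Bcl2a1b and Bcl2a1d rose by log2 changes of 4.74, 3.28 and 3.53. These are near-identical copies, so the split of reads among them is uncertain. Phlda1, Plk2, Cdkn1a, Cflar and Mlkl rose too, and Pycard, the adaptor that joins NLRP3 to caspase-1, fell from 51.7 and 49.0 to 11.6 and 5.56 RPKM (log2 change -2.50, SE 0.50, adjusted p = 0.0349), while Nlrp3 was among the 9 that rose. Of these 11 calls, 8 held without untreated A, 2 without untreated B, 4 without LPS A, 1 without LPS B and 7 without control untreated A or B, and the replicate block gave 13 rises and 4 falls.

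Matrix and coagulation genes gave 8 rises and 3 falls among 41 tested of 46. Mmp3, the secreted protease stromelysin-1 (chr9:7445822-7455972, mm9), stood at 1.16 and 0.0757 RPKM untreated and at 166 and 354 RPKM with LPS (log2 change 7.32, SE 0.65, adjusted p = 0.00490), and was called in every fit that left out 1 library, as was the syndecan gene Sdc4 (23.3 and 23.2 to 217 and 279 RPKM). Genes on both sides of clotting moved. F3, tissue factor, which starts coagulation, rose from 11.7 and 3.98 to 73.9 and 81.6 RPKM (log2 change 3.31, adjusted p = 0.0267). Thbd, the anticoagulant thrombomodulin, fell from 17.2 and 21.0 to 1.34 and 0.494 RPKM (log2 change -3.42, SE 0.50, adjusted p = 0.0159), while Procr, the receptor of its partner protein C, rose from 104 and 29.5 to 500.0 and 661 RPKM. Tgfbi, a matrix protein, and Timp2, a metalloproteinase inhibitor, fell by 3.34 and 2.46 on the log2 scale, and Mmp14 and the hyaluronan synthase Has1 rose. With median-ratio scaling Tgfbi had an adjusted p of 0.0510. Mmp9, gelatinase B, stood at 1.40 and 6.31 RPKM untreated and at 30.6 and 37.8 RPKM with LPS (adjusted p = 0.0505, and 0.00531 with the replicate block). Of the 8 risers 7 had a promoter window, and 4 of these (Mmp3, Serpinb2, F3 and Procr) held the AP-1 letters. The share of all windows, 7.8%, counts each window singly and is an unlike measure. By the same count, 3 of 8 cell death and 2 of 6 Toll-like receptor adaptor risers with a window held these letters. In the antimicrobial and stress response lists 1 of 10 did in each, among feedback inhibitors 0 of 10, and in the AP-1 and EGR list 0 of 6. Of these 11 calls, 6 held without untreated A, 3 without untreated B, 2 without LPS A, 2 without LPS B and 9 without control untreated A or B, and the replicate block gave 14 rises and 9 falls.

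**Figure D4:**
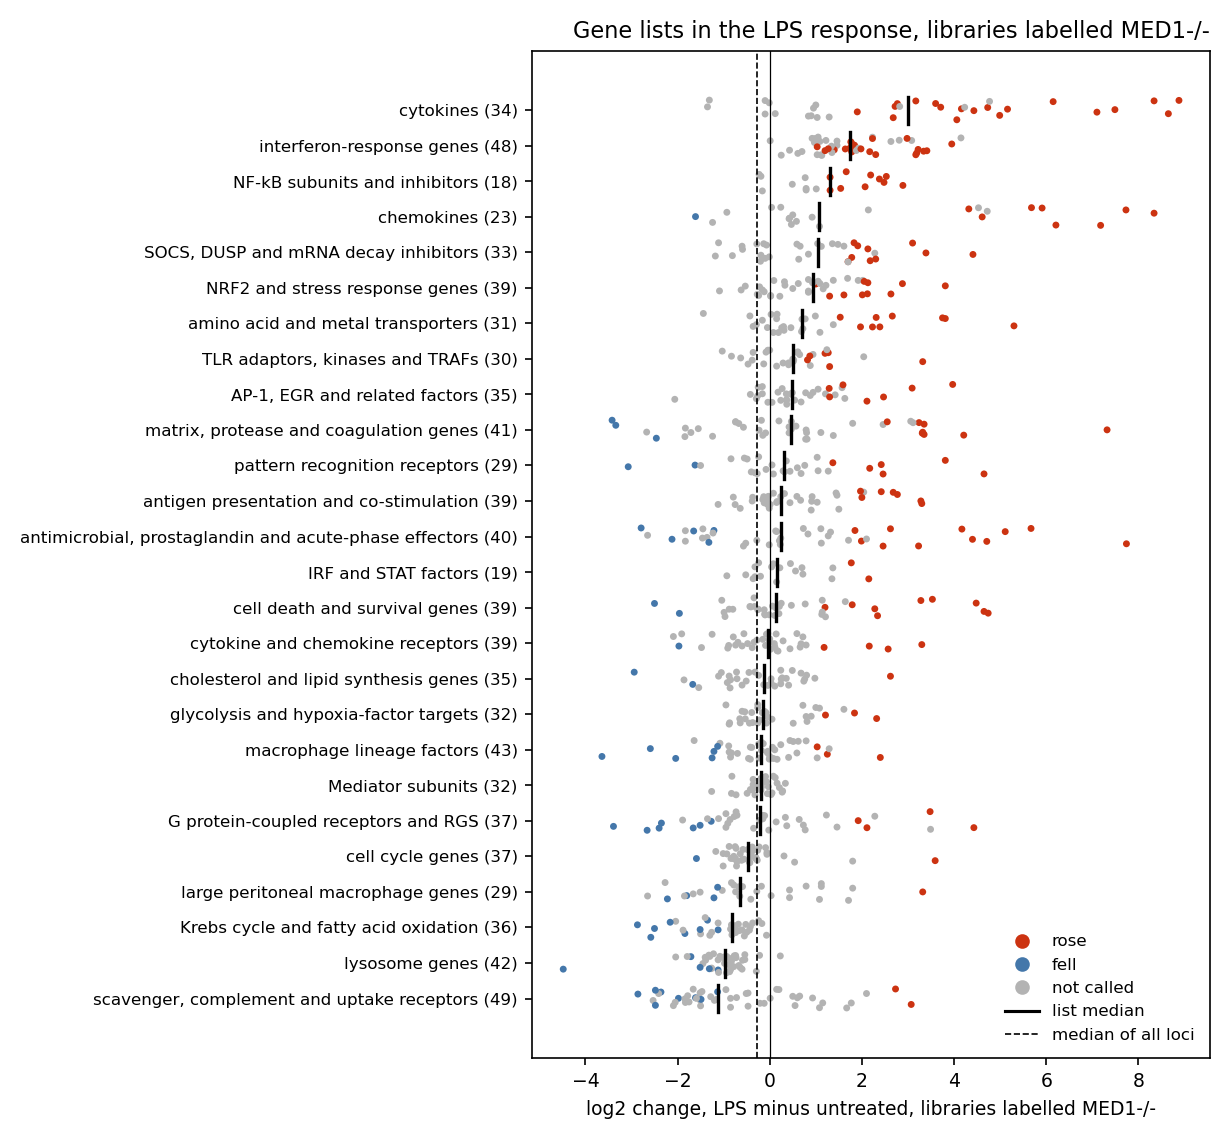
Log2 change with LPS of each tested member of 26 gene lists (number tested in brackets), ordered by list median. Cytokines have the highest median (2.99) and scavenger, complement and uptake receptors the lowest (-1.13), beside the median of all loci at -0.28.

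Named genes outside every list filled out both ends. Among the calls that held without any 1 library were Wdr92, from 19.9 and 27.3 to 308 and 405 RPKM (log2 change 3.86, SE 0.29, adjusted p = 0.00313), the CDC42 effector gene Cdc42ep2, from 3.62 and 4.41 to 58.7 and 52.7 RPKM, and the odorant receptor locus Olfr1033, from 1.28 and 2.05 RPKM to 24.8 RPKM in both LPS libraries. Among the 15 largest falls, Ptplad2 went from 15.9 and 39.4 to 1.32 and 0.345 RPKM (log2 change -3.89, SE 0.50, adjusted p = 0.0122), Tmem37 from 30.9 and 31.5 to 2.07 and 0.666 RPKM, and Tifab, a relative of the TRAF-binding protein TIFA, from 12.3 and 15.3 to 1.26 and 0.134 RPKM. The retinal reductase gene Dhrs3 fell from 73.6 and 83.8 to 12 and 6.53 RPKM, and Hpse, the enzyme heparanase, from 46.0 and 70.6 to 9.40 and 4.45 RPKM. Slc9a3r2, the lipase gene Daglb and Arl11 also fell, with log2 changes of -3.21, -3.11 and -2.95. Abundant transcripts that fell included Itm2b, from 751 and 1252 to 336 and 280.3 RPKM, and Ifi30, a lysosomal thiol reductase, from 641 and 462 to 259.6 and 188 RPKM. Of these, Arl11 had an adjusted p of 0.0589 and Ifi30 of 0.0768 with median-ratio scaling. Leaving out untreated A kept 2 of the 10 falls in this paragraph, untreated B none, LPS A 2, LPS B none and control untreated A or B 7.

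Cell cycle genes and Mediator subunits had 2 calls and none. Of the cell cycle genes tested 2.70% rose and 2.70% fell, beside 3.31% each way over all loci. Among 37 cell cycle genes tested of 41, Mki67 rose from 3.34 and 9.46 to 67.3 and 95.1 RPKM (log2 change 3.59, SE 0.70, adjusted p = 0.0323), the inhibitor Cdkn2c fell and 33 had a lower mean with LPS (29 with median-ratio scaling), beside 8120 of 11272 over all loci. The kinase gene Cdk2 stood at 16.8 and 20.1 RPKM untreated and at 9.04 and 8.22 RPKM with LPS (adjusted p = 0.0647, and 0.0439 with the replicate block). Of these 2 calls, 1 held without untreated A, none without untreated B, LPS A or LPS B and 1 without control untreated A or B, and the replicate block gave 2 rises and 5 falls. None of 32 tested Mediator subunits (33 in the table) was called in either direction by limma with or without the replicate block, and their log2 changes ran from -1.26 (Cdk19) to 0.34.

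The response in control libraries, which share no library with the ones above, had 357 rises (3.17% of loci tested) and 354 falls (3.14%). Both responses were tested with the same spread per locus, taken from all 8 libraries, so the calls of the genotypes are not independent. Of the 373 rises in libraries labelled MED1-/-, 248 (66.5%) were also called higher in controls, and 372 had the same sign. Of the 373 falls, 198 (53.1%) were also called lower, 367 had the same sign and 1, Arg1, was called in the opposite direction. The share of equal signs over all loci was not taken. A call in 1 genotype only does not show a difference, so the difference of the responses was tested at each locus. It passed at 4 of 11272 loci (0.0355%), of which Arg1 was the only protein-coding gene, and 184 loci had an unadjusted p under 0.05. For Arg1 the response in libraries labelled MED1-/- minus that in controls was -4.03 in log2 units, with an SE of 0.38 and a 95% interval from -4.92 to -3.14 (adjusted p = 0.0284). That difference kept its sign in all 16 alternatives run but was not past the threshold without LPS A (adjusted p = 0.246), LPS B (0.170), control untreated A (0.0993) or B (0.160), control LPS A (0.0679) or B (0.152), nor with median-ratio scaling (0.115), quantile normalization (0.0653), no filter (0.0999), a pseudocount of 0.1 (0.0587) or a filter at 5 RPKM (0.0536).

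The named genes with the smallest p in that contrast after Arg1 did not pass the adjustment over all loci (adjusted p = 1 for each) and are given as values. P2ry6, a UDP receptor, changed by -2.40 in libraries labelled MED1-/- and stood at 17.5 and 8.15 RPKM untreated and 22.9 and 14.4 RPKM with LPS in controls, a difference of -2.96 (95% interval -4.22 to -1.70, unadjusted p = 0.000769). Ccl6 changed by -1.61 and in controls was at 56.7 and 67.1 RPKM untreated and 85.4 and 85.6 RPKM with LPS (difference -2.08, interval -2.96 to -1.19). The orphan receptor gene Gpr141 went from 7.44 and 7.87 to 2.42 and 2.76 RPKM in libraries labelled MED1-/- and stood at 5.92, 8.98, 13.5 and 10.7 RPKM in controls (difference -1.92, interval -2.72 to -1.12). Htr7, a serotonin receptor gene, reached 3.04 and 3.20 RPKM in the LPS controls and 0.0308 and 0.302 RPKM in LPS libraries labelled MED1-/-. In the other direction, Tnfsf4 reached 25.4 and 9.26 RPKM against 4.65 and 4.21 RPKM in LPS controls, and H2-M2, a nonclassical class I gene, 13.2 and 17.5 RPKM against 3.02 and 8.13 RPKM. Rasgef1b reached 78.0 and 66.9 RPKM against 29.3 and 20.7 RPKM. For the collectin Colec12 and for Glipr1 the difference came from a lower LPS level in controls, with log2 changes of -2.19 and -2.04 there and of -0.85 and -0.51 in libraries labelled MED1-/-. The replicate block called the Colec12 change in the latter (adjusted p = 0.0247).

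**Figure D5:**
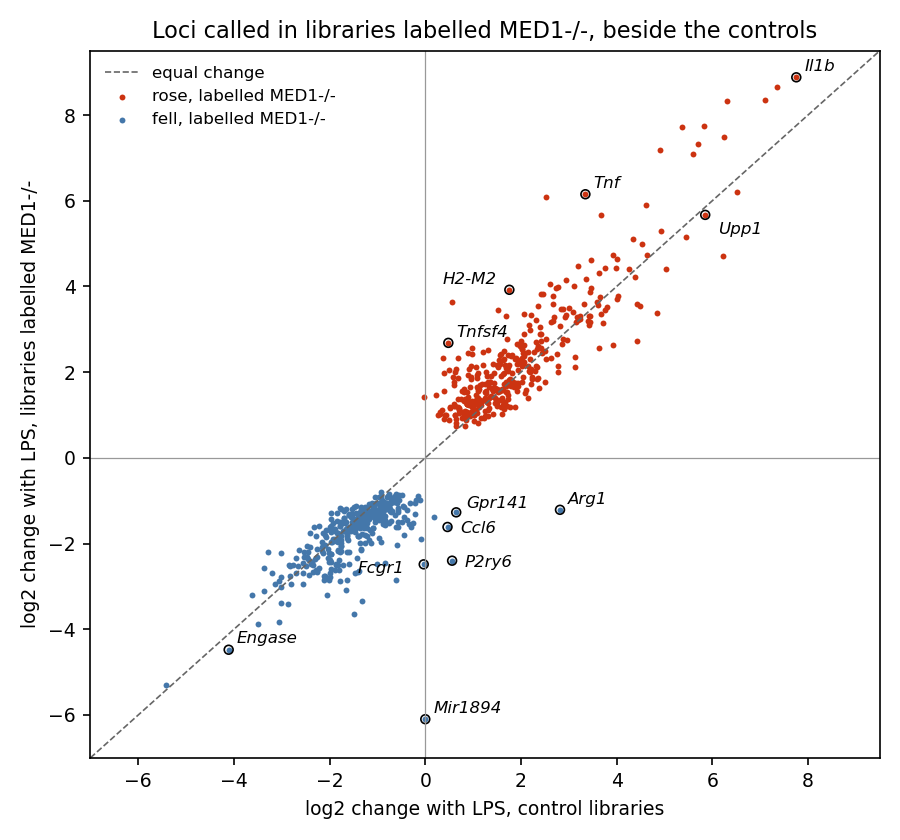
Log2 change with LPS in libraries labelled MED1-/- (vertical) against that in control libraries (horizontal) for the 746 loci called in the former. Nearly all points lie in the quadrants of equal sign, and Arg1 (2.82 in controls, -1.21 in libraries labelled MED1-/-) lies alone at the far right below 0.

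Among the large responders, the interval of the difference for Il1b was too wide to place the genotypes apart or together. Il1b rose by 8.88 in libraries labelled MED1-/- and 7.76 in controls, a difference of 1.12 with a 95% interval from -1.56 to 3.81. Tnf rose by 6.15 and 3.35, with LPS levels of 680.3 and 1881 RPKM against 115 and 436 RPKM, and the difference of 2.80 had an interval from 0.50 to 5.11 before and no call after adjustment (adjusted p = 1). Upp1, with its tight replicates, gave a narrower interval, from -1.14 to 0.78 around a difference of -0.18.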

How the data were processed

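RNA sequencing of 8 libraries was deposited as 1 table of RPKM values computed by the authors. Per the submitters' processing notes, bcl2fastq, TopHat2 2.0.14 and Cufflinks 2.2.1 were used with mm9. The sources used here state neither annotation nor strandedness. The table has 24192 lines for 23735 loci, 457 of which repeat a locus under another symbol. Each locus was used once. Read counts are not in the table. Depth was estimated from steps between low values, which were whole multiples at 89.8% of 2689 loci under 0.4 RPKM (tolerance 0.1 read plus 0.02 per read). In units of 1e6 mapped reads it came to 6.9 to 14.3 per library, 14.3 and 7.6 in untreated A and B and 10.3 and 8.4 in LPS A and B labelled MED1-/-. At that depth 1 read on 1 kb stands for 0.0699 to 0.1439 RPKM. Positions are from GENCODE vM1 (mm9), and promoter sequences from RefSeq (GRCm38.p6).

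A locus was tested where 2 or more libraries reached 1 RPKM, so some passed only through the group where they are high. A mean per group was fitted to log2(RPKM + 1), which understates the change of low loci, over all 8 libraries in R 4.3.3 with limma 3.58.1 (trended variance, 4 residual degrees of freedom). Tests were two-sided, and a locus is said to have risen or fallen at a Benjamini-Hochberg adjusted p under 0.05 over all loci. Folds are ratios of mean RPKM. The scripts were tested on simulated data. Figures used Python 3.11.15 and matplotlib 3.10.9.

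The comparison, gene lists and naming rule were chosen with earlier results of these data known. Named genes were Med1, the 15 largest rises and 15 largest falls with at least 5 RPKM in the higher group, the 10 largest in RPKM each way, calls that held without any 1 library, up to 6 members of each list and the 5 smallest p each way in the difference of responses. Small RNA and predicted genes were skipped. Other list members are named because they were called, or were picked after their values were seen. Deviations from the group means correlated by letter in all 6 pairs of groups (r from 0.20 to 0.41, 0.31 between the untreated and LPS libraries labelled MED1-/-). The main fit did not use the letter, so its calls and p-values are unpaired. A paired fit with the letter as a replicate block was run as an alternative. The other alternatives were the 4 libraries labelled MED1-/- alone, no variance trend, 2 other pseudocounts, a filter at 5 RPKM or none, 2 scalings and leaving out each library. A few genes that the rule picks are not reported here.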

Additional observations from a re-analysis of the deposited data

Results flagged for a closer look

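At 4 loci the test of the difference between the responses of the genotypes passed in limma, 3 of which were listed at 0 in 6 of the 8 libraries and were tested only through the group where they were high. Arg1 differed by -4.03 on the log2 scale (libraries labelled MED1-/- minus controls, adjusted p = 0.0284). Mir1894, a microRNA locus, stood at 48.6 and 93.8 RPKM in the untreated libraries labelled MED1-/- and was listed at 0 in the other 6 (difference -6.10, adjusted p = 0.00666). Mir3473e was listed at 27.4 and 22.9 RPKM in untreated controls only (difference 4.70, adjusted p = 0.00467), as was Mir5133, at 96.5 and 80.7 RPKM (difference 6.48, adjusted p = 0.000691). The 3 microRNA loci were named after their values were seen. Without LPS A or LPS B labelled MED1-/-, the Mir1894 difference had adjusted p = 0.0617 and 0.0615, as had that of Mir3473e, and Mir1894 had 0.0539 without control LPS B. With a pseudocount of 0.1 or a filter at 5 RPKM no difference of the 4 passed.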

How the results depend on the processing

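The 373 rises and 373 falls became 592 and 1019 with the letter as a replicate block, 233 and 229 in the 4 libraries labelled MED1-/- alone, and 169 and 93 with no filter on low values. Leaving out 1 library at a time gave 12 to 480 rises and 3 to 1066 falls, and 1 to 7 loci with a different response. The 4 such loci became 0 with a pseudocount of 0.1 and 0 with a filter at 5 RPKM. Of 138 called named genes the block lost 0, and it added 23 of the 207 tested: those given above and Fpr2, Pde4b, Stat2, Stat6, Pparg, Cebpb, Slc2a1, Acaa2, Idh2, Soat1, Gpnmb, Slamf1, Ccnd2, Cdca8 and Mcm3, with adjusted p from 0.00485 (Pde4b) to 0.0487 (Cdca8). It changed no other call of a named gene. No named gene changed sign with its call in any alternative run. Of the 138, median-ratio scaling lost 8, quantile normalization 5, no filter 66, the 4 libraries alone 25, a pseudocount of 0.1 lost 4, and leaving out LPS B labelled MED1-/- lost 126. With 2 libraries a group, single losses of this kind leave 1 library on a side. Depth limits values near 0.1 RPKM to a few reads.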
